A study of Homo sapiens with 4 samples.

Results

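The chromosome arms 3p, 4p and 11q of BE(2)C neuroblastoma cells were examined in nucleosome maps made by MNase-seq, which sequences the DNA that nucleosomes protect from micrococcal nuclease. On build hg19 the first region was chr3:1-87000000 (3p), the second was chr4:1-48000000 (4p) and the last was chr11:70000001-135006516 (11q). A nucleosome was a member if its dyad, the midpoint of its 147 bp, lay in one of the 3 regions. The regions held 739336 of 10527010 nucleosomes in control replicate 1, 854450 of 12120711 in control replicate 2, 749674 of 10677252 in MYCN knockdown replicate 1 and 857831 of 12178724 in MYCN knockdown replicate 2, which was 7.02, 7.05, 7.02 and 7.04% of the maps. They were read in 1985 bins of 100 kb of the 26657 autosomal bins used (867 in 3p, 474 in 4p and 644 in 11q), and they held 501, 225 and 454 protein-coding genes.

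All 4 libraries came from BE(2)C, a cloned human line with amplified MYCN, so the levels below describe that clone and not neuroblastoma in general. The 2 control libraries were from cells given a control siRNA, and the 2 MYCN knockdown libraries from cells given an siRNA against MYCN, which encodes the transcription factor N-Myc. The labels give 80 nM siRNA, where the study's methods give a lower final concentration, and a genotype of wild type and a harvest on the day after transfection for every library. The study calls the replicates biological, but nothing in the labels says that they were separate cultures. The p-values thus measure only the spread between these libraries. Reads in called nucleosomes numbered 147726171 and 147370973 in the replicates numbered 1 and 242544884 and 239257113 in those numbered 2. The bin that holds MYCN had 22.0 to 31.3 times the reads of the median autosomal bin in the 4 libraries. The MYCN locus was thus at a high level in each library, but this cannot by itself identify the line as BE(2)C.

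Loss of 3p, 4p and 11q is a recurrent finding in neuroblastoma, and loss of 11q is found mainly in tumours without MYCN amplification. The arms carry tumour suppressor, DNA repair and neural crest genes. MNase-seq reads are drawn from all copies of a locus, so the reads summed over a long stretch follow the amount of DNA that is present, and the nucleosomes within it are read at that depth. A copy missing in every cell and several copies missing in some of the cells cannot be told apart in a bulk library.

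The best positioned nucleosome of 4p by the rule given here is shown as a single member of that region. Of the nucleosomes whose dyads lay within 5 bp in the 4 libraries with at least 50 reads in each, the one with the lowest mean fuzziness was taken. Fuzziness is the standard deviation, in bp, of the fragment midpoints around the dyad. The sequence is the plus strand of hg19, and capitals mark the span of the 4 dyads.
4p chr4:9242018-9242164: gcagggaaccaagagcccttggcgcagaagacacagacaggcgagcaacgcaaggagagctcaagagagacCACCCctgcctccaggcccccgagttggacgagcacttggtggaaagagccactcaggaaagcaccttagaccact

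It had 61 and 105 reads in the control libraries and 98 and 91 in the knockdown libraries, with a fuzziness of 21.7, 27.5, 22.4 and 21.5 bp in the same order. It lay 3514 bp from USP17L17, a member of a tandem family of deubiquitinase genes, and was the best of 20 candidates. The sequence was not unique: its 147 bases occurred 5 times in the genome on either strand, so its read counts may be drawn from several places.

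The bases upstream of 2 start sites are shown because they stand for a gene of the high 11q and a gene of the low stretch of 3p. They run 5′ to 3′ on the strand of the gene and end at the base before the start site, with no capitals because no E-box was found. ATM encodes the kinase that signals double-strand breaks, and VHL the substrate receptor of a ubiquitin ligase for hypoxia-inducible factors.
ATM chr11:108093594-108093793 (plus strand): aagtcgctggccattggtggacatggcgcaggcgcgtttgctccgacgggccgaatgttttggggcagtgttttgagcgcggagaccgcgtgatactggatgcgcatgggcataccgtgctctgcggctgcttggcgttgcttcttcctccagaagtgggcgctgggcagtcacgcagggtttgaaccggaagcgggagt
VHL chr3:10183262-10183461 (plus strand): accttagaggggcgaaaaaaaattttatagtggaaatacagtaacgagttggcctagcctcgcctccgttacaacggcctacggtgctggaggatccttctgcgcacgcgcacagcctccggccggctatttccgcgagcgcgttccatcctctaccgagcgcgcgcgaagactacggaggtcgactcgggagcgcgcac

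The E-box CACGTG, the palindromic motif of Myc family factors, reads the same on both strands. It was present in neither of these windows. Of all 20098 promoters, 6.94% held it in the 200 bases upstream of the start site, and the share was 6.39% in 3p, 7.56% in 4p and 4.85% in 11q. The GC content of the windows was 62% for ATM and 59.5% for VHL, with 19 and 25 CpG dinucleotides.

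Is each region present at a lower level than the rest of its chromosome? The level of a bin was its summed reads over the median autosomal bin of the library, and the level of a region was the median over its bins. 3p was low, 4p was close to the rest of its chromosome, and 11q was high. Set against the rest of its own chromosome, 3p alone among the 3 regions was therefore low, and only in its part before 61.35 Mb. That comparison cannot show a lower level shared by a whole chromosome. The low side of chromosome 11 was the part before 65.45 Mb, which lies outside the 11q region.

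The level of 3p was 0.647 and 0.688 in the control libraries and 0.630 and 0.673 in the knockdown libraries. The rest of chromosome 3 stood at 1.13 to 1.15. The difference was -0.479 ± 0.0266 (SD, n = 4), and the region was lower in 4 of 4 libraries (exact sign-flip permutation test, two-sided, p = 0.125, the smallest that 4 libraries allow). Of the bins of 3p, 60.3 to 66.1% had a level below 0.75, against 0.278% in the rest of the chromosome.

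The level of 4p was 0.878, 0.880, 0.882 and 0.887 in the same order of libraries, against 0.803 to 0.833 in the rest of chromosome 4. It was higher by 0.0632 ± 0.00855 (SD, n = 4) in 4 of 4 libraries (exact sign-flip permutation test, p = 0.125). Once the levels were divided by the median level of autosomal bins of the same GC content, 4p was lower by 0.0192 ± 0.00358 (SD, n = 4), also in 4 of 4 libraries, so the direction turned with that correction. The difference was small in both forms beside the steps on chromosomes 3 and 11.

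The level of 11q was 1.25, 1.23, 1.23 and 1.22, against 0.572, 0.626, 0.569 and 0.623 in the rest of chromosome 11. The difference was 0.638 ± 0.0391 (SD, n = 4), with 11q higher in 4 of 4 libraries (exact sign-flip permutation test, p = 0.125). At most 0.155% of the bins of 11q had a level below 0.75 in any library, against 77.5 to 85.9% in the rest of the chromosome. The whole set of autosomal bins had 20.2 to 23.2% below that level.

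**Figure D1:**
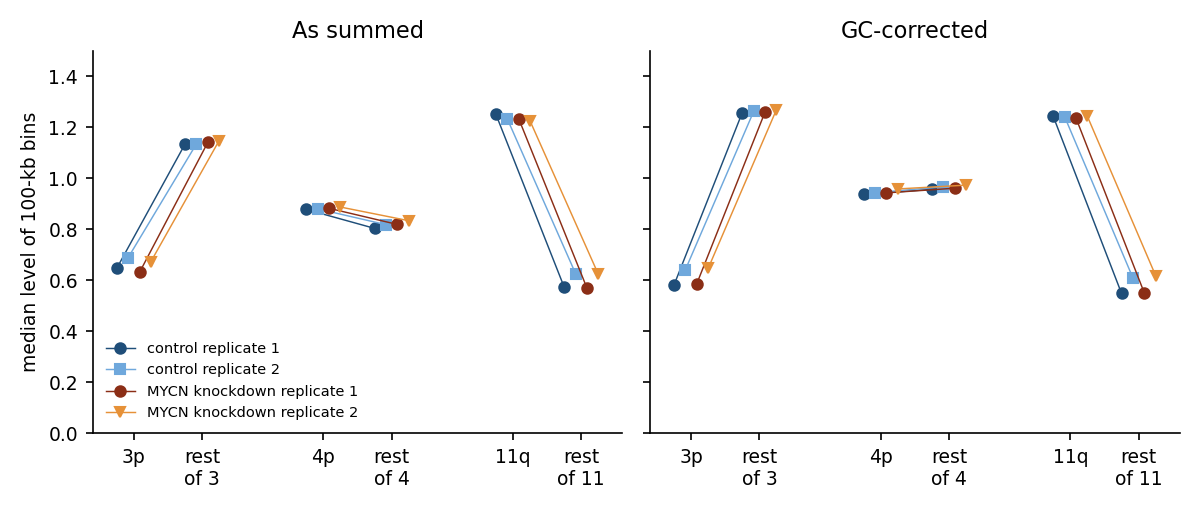
Median level of the 100-kb bins of 3p, 4p and 11q and of the rest of each chromosome, as summed and after GC correction, with a line joining the 2 values of each library. 3p lies at 0.630 to 0.688 below its chromosome, 11q at 1.22 to 1.25 above it, and the lines of 4p slope down as summed and slightly up after correction.

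**Figure D2:**
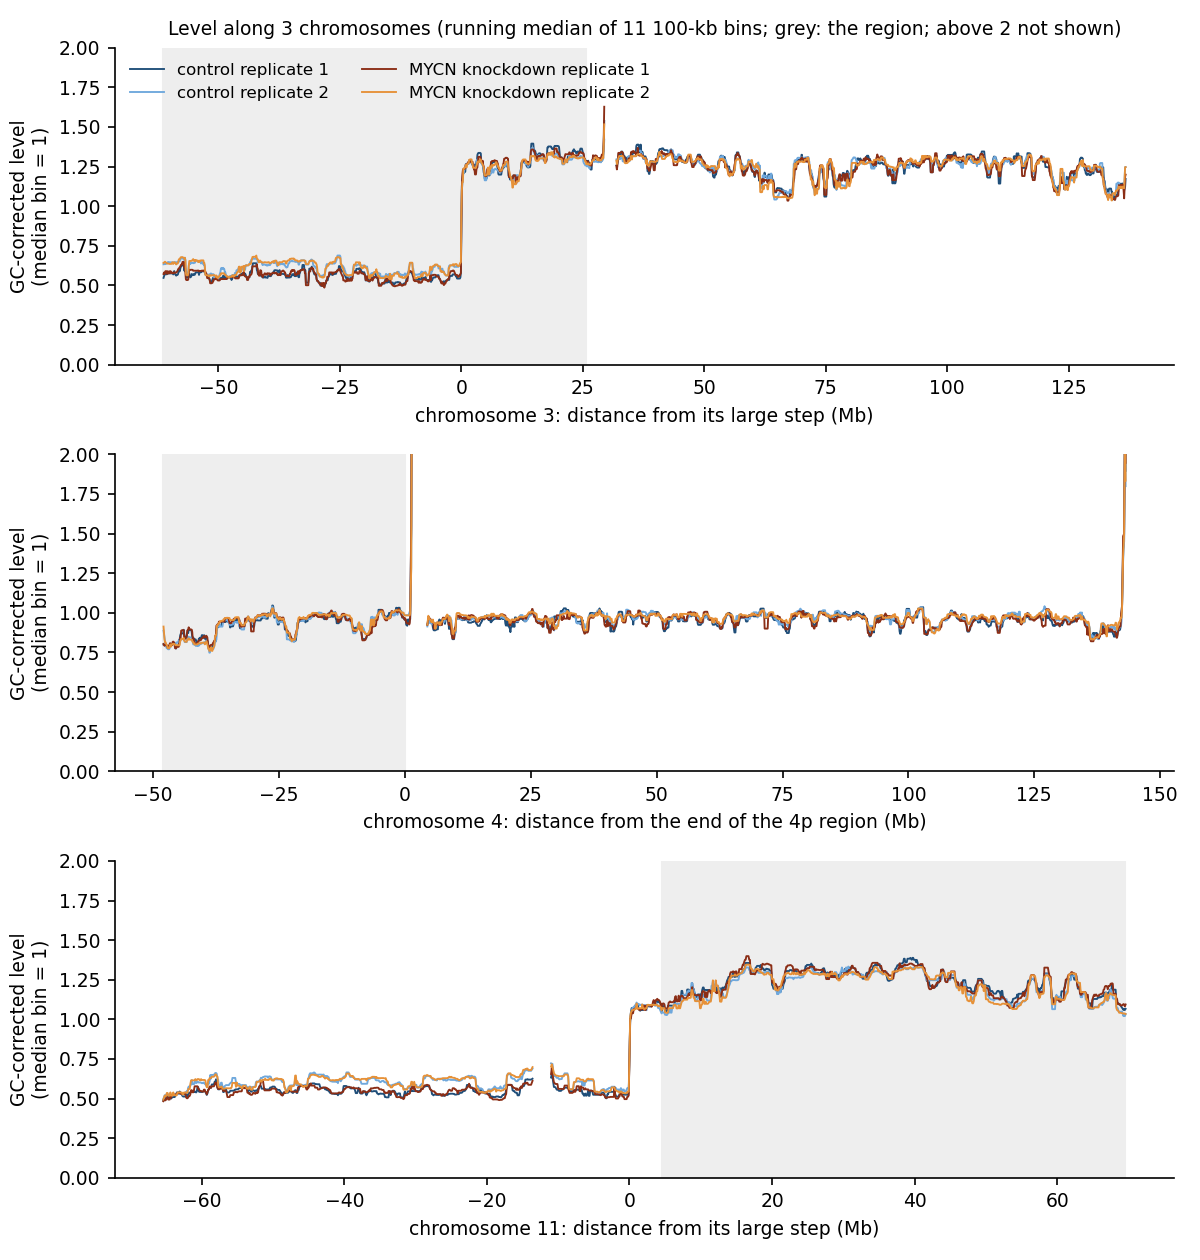
Level along chromosomes 3, 4 and 11 after GC correction, as a running median of 11 bins of 100 kb in each of the 4 libraries, with the region shaded and values above 2 left out. Chromosome 3 steps up inside the shaded region, chromosome 4 is flat across its border, and chromosome 11 steps up before 11q begins.

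Where did the levels change? The large step of chromosome 3 lay inside 3p. On bins of 10 kb it fell at 61.35 Mb in each of the 4 libraries. The median level over the 500 kb before it was 0.511, 0.581, 0.521 and 0.580, and over the 500 kb after it 1.25, 1.25, 1.25 and 1.26. The step fell between FHIT, a gene of a common fragile site, and PTPRG, a receptor tyrosine phosphatase. FHIT (chr3:59733003-61237133, minus strand) ended 112868 bp before the step and PTPRG (chr3:61547243-62283284, plus strand) began 197242 bp after it.

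Over the whole 61.35 Mb before the step the level was 0.572, 0.624, 0.571 and 0.624. The 254 bins of 3p after the step stood at 1.11, 1.09, 1.12 and 1.12, close to the rest of the chromosome. The 3p region was therefore 2 stretches, a low one that reached from the end of the chromosome to FHIT and a high one from PTPRG to the border of the region. After GC correction the level before the step was 0.442, 0.488, 0.441 and 0.488 of that after it.

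The large step of chromosome 11 fell at 65.45 Mb in each library, before the border of 11q at 70 Mb. RELA, a subunit of NF-kappa-B, ended 19440 bp before it, and KAT5, the acetyltransferase of the TIP60 complex, began 29466 bp after it. After GC correction the level before this step was 0.443, 0.492, 0.446 and 0.498 of that after it. The low stretch thus covered 11p and the first part of the long arm, and all of 11q lay on its high side. The positions of both steps were placed on fine bins after the 100-kb levels had been seen.

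**Figure D3:**
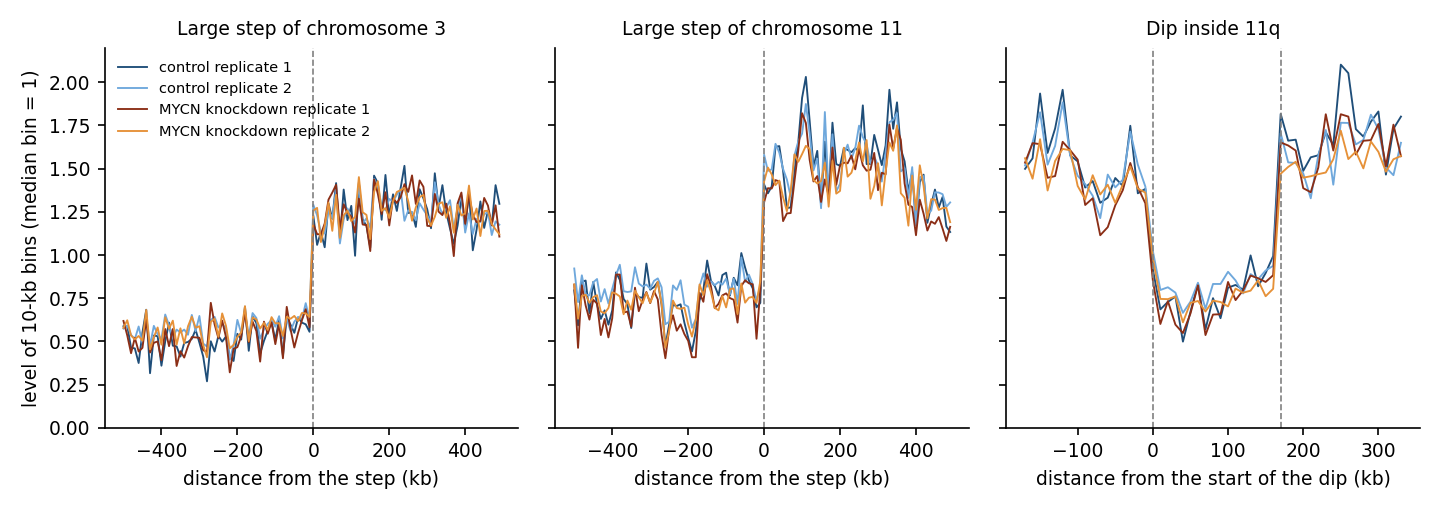
Level of 10-kb bins in the 4 libraries against distance in kb from the large step of chromosome 3, from that of chromosome 11 and from the start of a dip inside 11q, with dashed lines at the step and at both ends of the dip. All 4 lines rise at each step, and inside the dip the medians of 0.739 to 0.833 sit beside those of 0.693 to 0.817 before the chromosome 11 step.

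Segmentation of the 100-kb levels gave 9 breakpoints on chromosome 3, 6 on chromosome 4 and 4 on chromosome 11. Several of them followed GC content. The step of 4p at 9.1 Mb, from 1.13 to 0.841, was absent after GC correction, and the stretch before it had a GC content of 49.9% against 37.6% after it. Across bins the level rose with GC content in 4p (r = 0.92, 474 bins) and 11q (r = 0.92, 644 bins) but hardly in 3p (r = 0.02, 867 bins), where the large step lay across it. After correction r was -0.70, -0.79 and -0.41 in 4p, 11q and 3p, so the corrected levels of GC-rich stretches were low. The first 10 Mb of 4p stood at 0.814 after correction, with a GC content of 49.1%. The points of these correlations share libraries and base composition, and they are given as descriptions.

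After GC correction the long segments, those of over 5 Mb, fell at 3 heights. The stretch before the step of chromosome 3 had a median of 0.587 and that before the step of chromosome 11 one of 0.575. The 4p segment stood at 0.947 and the long segments of 4q at 0.965. The stretches after the chromosome 3 and 11 steps ranged from 1.14 to 1.28. The 6 shorter segments, 2 on chromosome 3, 3 on chromosome 4 outside 4p and 1 in 11q around the dip, ranged from 0.198 to 3.24. No number of copies was assigned to these heights.

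A short stretch of 11q was low. Runs of at least 5 bins of 10 kb were listed whose GC-corrected level was below 0.7 or above 1.4 of the local median in all 4 libraries, a rule added after the levels had been seen. 11q held 1 such low run and no high one. The run was chr11:126170001-126340000, 170 kb long. Its level was 0.80 and 0.833 in the control libraries and 0.739 and 0.746 in the knockdown libraries, against 1.61, 1.53, 1.54 and 1.48 in the 150 kb on each side. The ratio was 0.495, 0.543, 0.479 and 0.504, so each library showed about the same fall.

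The run covered all of DCPS (chr11:126173955-126219900), which encodes the scavenger mRNA decapping enzyme, and all of ST3GAL4 (chr11:126225535-126310239), a sialyltransferase. It also covered the 3′ end of KIRREL3 (chr11:126293253-126873355, minus strand), a cell adhesion molecule of neurons. The called nucleosomes in it held 10.6, 15.8, 9.95 and 14.6 reads on average, against 19.0, 29.1, 17.7 and 27.5 beside it. Its GC content was 51.6% against 48.1%, and the level rose with GC content across the bins of 11q. Whether reads map less well there was not tested.

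4p held 1 low run, at 34.78 to 34.83 Mb, in which no protein-coding gene lay. Its median level was 0 in all 4 libraries, with 5 or 6 nucleosomes called in each. The stretch between neighbouring dyads that held no nucleosome was 31167, 31098, 31840 and 49398 bp long. The flanks stood at 0.685, 0.722, 0.685 and 0.711, so the empty stretch was sharp and common to both groups.

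The high runs of 3p and 4p lay largely over repeated genes. In 3p the run at 75.68 to 75.80 Mb, which held FRG2C and ZNF717, had a level of 5.08, 4.88, 5.04 and 4.68. The other, at 0.61 to 0.66 Mb, held no protein-coding gene and had a level of 1.11, 1.12, 1.24 and 1.19, against 0.449, 0.523, 0.484 and 0.547 beside it. In 4p the run at 0.01 to 0.07 Mb, which held ZNF595, stood at 3.94, 3.92, 4.06 and 3.96, and the 2 runs at 9.21 to 9.27 and 9.33 to 9.38 Mb lay over USP17L genes at 3.31 to 4.25. The share of reads from other copies of these genes was not tested.

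Which genes lay on which side? All 456 protein-coding genes of 3p that lay before the step had a GC-corrected level between 0.484 and 0.664. The 45 genes after it had a level of at least 1.07, and no gene lay across it. Of the 49 genes of 3p on 5 lists (DNA repair and checkpoint, chromatin regulators, axon guidance and neuronal adhesion, neural crest and neuronal transcription factors, other tumour suppressor candidates), 41 lay before the step. The 8 after it were CADM2, CNTN3, FEZF2, FOXP1, MITF, PTPRG, ROBO1 and ROBO2. The level of a gene is the level of the bins it overlaps, so neighbouring genes share it.

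Among tumour suppressors of 3p, VHL had a level of 0.679 and 0.765 in the control libraries and 0.626 and 0.740 in the knockdown libraries. FHIT, a dinucleoside polyphosphate hydrolase, had 0.513, 0.568, 0.525 and 0.576. RASSF1, a scaffold of the Hippo pathway, had 0.817, 0.820, 0.766 and 0.776. RASSF1 stood higher than FHIT in each library, and after GC correction the means were 0.532 and 0.590, in the opposite order. Among chromatin regulators, BAP1, a deubiquitinase of histone H2A, had 0.904, 0.857, 0.843 and 0.791, and SETD2, the methyltransferase that places H3K36me3, had 0.647, 0.731, 0.612 and 0.693. CTNNB1, which encodes beta-catenin, had 0.551, 0.612, 0.552 and 0.610. After GC correction BAP1, SETD2 and CTNNB1 had means of 0.568, 0.532 and 0.562, so all of them sat at the height of the low stretch. ROBO1, a receptor for Slit ligands that lies after the step, had 0.996, 1.01, 1.01 and 1.03, and 1.34 after GC correction.

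The genes of 4p that had a level had a median of 1.03 as summed, with a range of 0.638 to 1.60, and 10 lay below 0.75. Among the 225, ZNF595, HMX1 and a set of USP17L genes had no level on 100-kb bins and are left out of these values. After GC correction the median was 0.848 and the range 0.552 to 1.07, which overlapped the genes of 3p before the step. SLIT2, a ligand of the Robo receptors, had a level of 0.758, 0.776, 0.774 and 0.802, and NSD2, the methyltransferase that places H3K36me2, had 1.20, 1.19, 1.12 and 1.12. After GC correction their means were 0.962 and 0.801. NSD2 lies in the GC-rich end of 4p, where the corrected levels were low.

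The genes of 11q had a median level of 1.29 as summed and 1.17 after GC correction. The lowest level among the 454 was 0.950 as summed and 0.676 after GC correction, and the dip described above covers DCPS and ST3GAL4. ATM had 1.14, 1.21, 1.12 and 1.20, the checkpoint kinase CHEK1 had 1.23, 1.27, 1.23 and 1.26, and the nuclease MRE11, which acts at double-strand breaks, had 1.24, 1.23, 1.25 and 1.23. H2AX, the histone variant phosphorylated beside breaks, had 1.42, 1.5, 1.41 and 1.42. The adhesion molecules CADM1 and NCAM1 had means of 1.13 and 1.22, the synaptic scaffolds DLG2 and SHANK2 1.1 and 1.54, the H3K4 methyltransferase KMT2A 1.24 and the sympathetic lineage factor PHOX2A 1.44. After GC correction these 10 genes ranged from 0.998 for H2AX to 1.32 for DLG2, all above the low stretches of chromosomes 3 and 11.

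**Figure D4:**
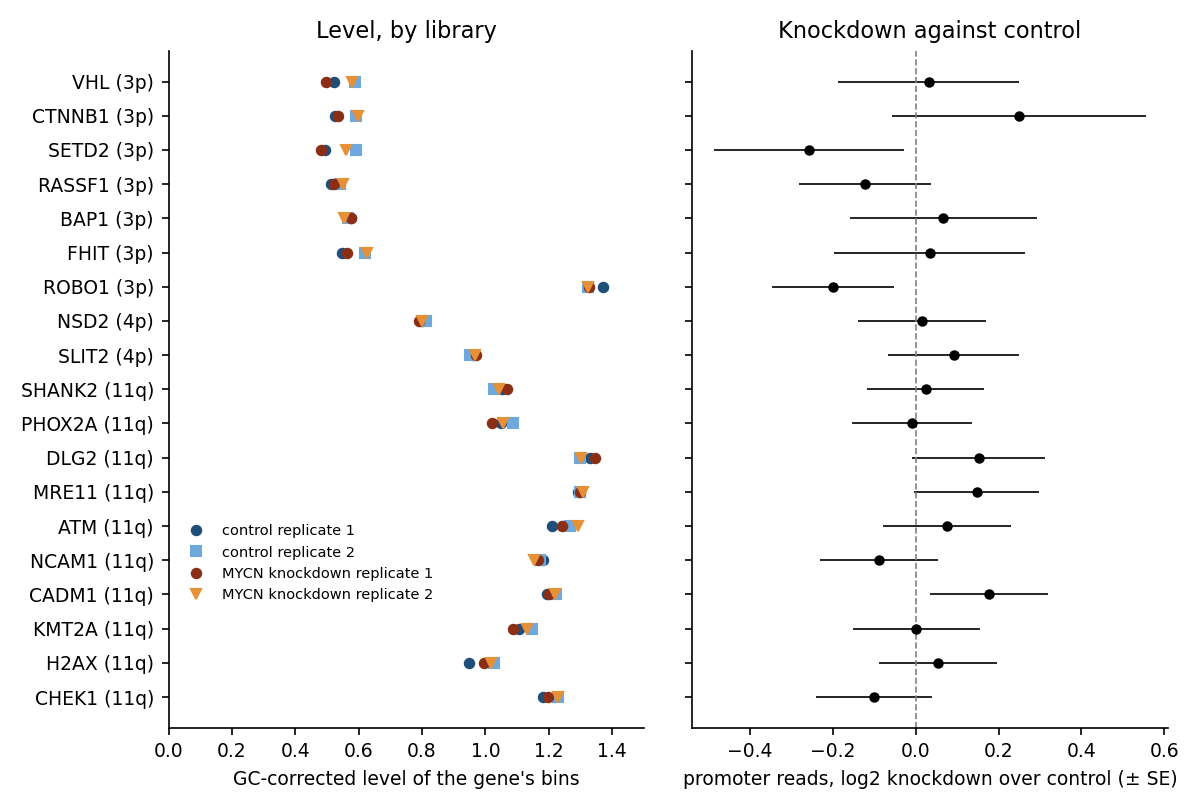
Left, GC-corrected level of the bins of each named gene, 1 point per library, and right, log2 difference of promoter reads between knockdown and control with its SE. The genes of 3p before the step have means of 0.532 to 0.590, ROBO1 at 1.34 lies beside DLG2 of 11q at 1.32, and on the right each value lies within 1.5 SE of 0.

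How did the nucleosomes themselves differ? Nucleosomes of 3p held 11.5 and 16 reads on average in the control libraries and 11.4 and 15.8 in the knockdown libraries, against 14.8, 22.3, 14.7 and 22.0 in the rest of chromosome 3. The log2 ratio was -0.42 ± 0.07 (SD, n = 4). Nucleosomes of 11q held 15.8, 23.7, 15.5 and 23.2 reads, against 10.7, 14.5, 10.4 and 14.1 in the rest of chromosome 11, a log2 ratio of 0.64 ± 0.09 (SD, n = 4). In 4p the log2 ratio was 0.07 ± 0.02 (SD, n = 4). Each ratio had the same sign in 4 of 4 libraries (exact sign-flip permutation test, p = 0.125 for each).

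The nucleosome calls were also sparser where the level was low. Before the step of chromosome 3 there were 310 and 405 nucleosomes per 100 kb in the control libraries and 314 and 407 in the knockdown libraries, against 393, 431, 399 and 432 after it. The share with under 10 reads was 53.9, 25, 56.1 and 25.5% before it and 21.1, 6.25, 20.3 and 5.57% after it. The deposited maps hold no nucleosome with under 6 reads, so reads in the weakest nucleosomes are missing from the levels. The replicates numbered 1, with fewer reads, had the lower level before the step, and the size of that loss was not tested.

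Fuzziness was lower in 3p and higher in 11q than in the rest of the chromosome. It was 34.2, 35.6, 34.2 and 35.6 bp in 3p, against 35.0, 36.6, 35.1 and 36.6 bp, a difference of -0.916 ± 0.0512 bp (SD, n = 4). In 11q it was 35.2, 36.7, 35.2 and 36.7 bp, against 33.7, 35.2, 33.7 and 35.2 bp, a difference of 1.47 ± 0.0237 bp (SD, n = 4). In 4p the difference was 0.120 ± 0.0191 bp (SD, n = 4). When nucleosomes of equal read count were compared, the differences were -0.512, 0.948 and 0.0435 bp in 3p, 11q and 4p, so the values moved toward 0 but kept their sign in 4 of 4 libraries (exact sign-flip permutation test, p = 0.125 for each). The distance between neighbouring dyads was longer by 1.26 bp in 3p, and it was shorter by 1.49 bp in 11q and by 0.523 bp in 4p, on the mean of 4 libraries.

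**Figure D5:**
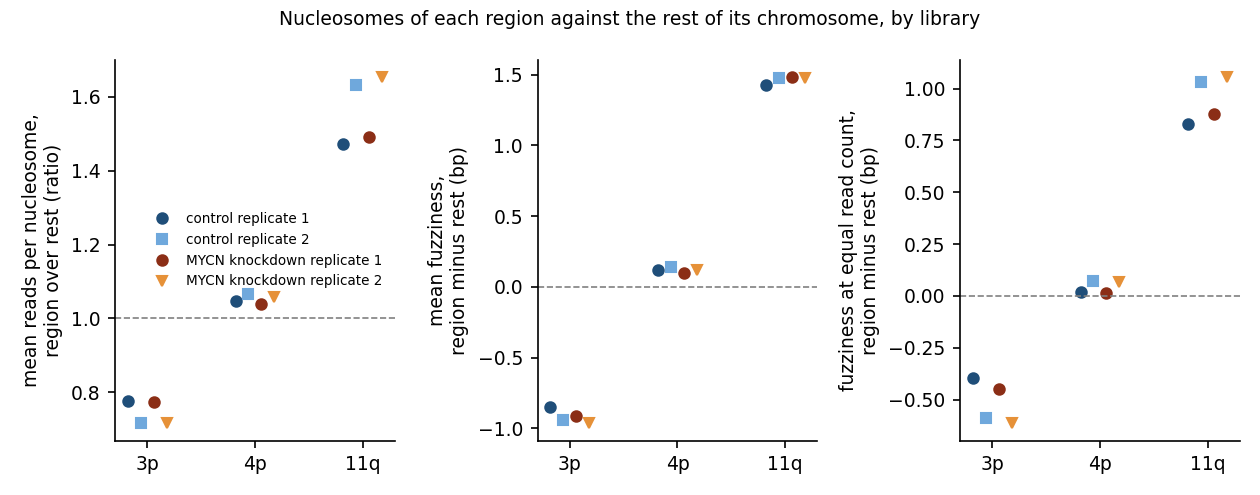
Reads per nucleosome of each region over the rest of its chromosome, and fuzziness in bp of the region minus the rest for all nucleosomes and at equal read count, 1 point per library, with a dashed line at no difference. 3p lies below the line and 11q above it in each panel, and 4p lies close to it.

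Did MYCN knockdown change the regions? The level of 3p was lower by 0.0159 in the knockdown libraries, which was smaller than the gaps of 0.0418 and 0.0423 between the replicates (exact permutation test, two-sided, p = 0.667). In 11q it was lower by 0.0124, with gaps of 0.0177 and 0.00897 (exact permutation test, p = 0.667). In 4p it was higher by 0.00585, and the groups did not overlap (exact permutation test, p = 0.333, the smallest that 2 against 2 libraries allow). Relative to the rest of chromosome 4, 4p was lower by 0.00969 in the knockdown libraries, so that direction turned. After GC correction 4p was higher by 0.0052 relative to that rest. The gaps between replicates are also gaps in depth, since the replicates numbered 1 had fewer reads in both groups. Between libraries of the same number the level differed by -0.0162 and -0.0157 in 3p, -0.0167 and -0.00802 in 11q, and 0.00447 and 0.00723 in 4p. No label says that the numbers mark pairs. Fuzziness differed by -0.00442 bp in 3p, 0.0348 bp in 4p and -0.00764 bp in 11q, where the replicates of a group differed by 1.43 to 1.54 bp.

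Across the genome edgeR called 0 of 28148 bins of 100 kb at an adjusted p below 0.05, which is 0%, and so none of those in 3p, 4p or 11q. The smallest adjusted p was 0.795 (edgeR). At an unadjusted p under 0.05 there were 55 of 867 bins in 3p, 45 of 474 in 4p and 23 of 644 in 11q, or 6.34, 9.49 and 3.57%, against 6.19% of all bins. DESeq2 also called 0, with 48, 35 and 33 bins at an unadjusted p under 0.05, or 5.54, 7.38 and 5.12%, against 6.44% of all bins. After GC correction edgeR left 1, 3 and 2 bins at that p, or 0.115, 0.633 and 0.311%, against 0.494% of all bins. The median log2 difference was 0.00 in 3p, 0.02 in 4p and -0.01 in 11q, against 0.00 over all bins. The count of 0 depended on the model. With the replicate number as a block, edgeR called 14.1, 20.5 and 22% of the bins of 3p, 4p and 11q, against 19.4% of all bins. With GC correction as well, it called 0.115, 0.422 and 1.24%, against 0.753%.

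Promoters also gave a count of 0, each taken as 2 kb upstream and 1 kb downstream of its start site. edgeR called 0 of 20088, which is 0%, with a smallest adjusted p of 0.999 (edgeR). At an unadjusted p under 0.05 there were 10 promoters in 3p, 10 in 4p and 17 in 11q of 632 in all, or 2.00, 4.44 and 3.74%, against 3.15% of all promoters. DESeq2 called 0, with 3, 1 and 4 at that p, or 0.599, 0.444 and 0.881%, against 1.04% of all promoters. Of 104 genes on the 5 lists in the 3 regions, 0 were called in either direction, and 1 had an unadjusted p under 0.05. It was SETMAR of 3p, a histone methyltransferase fused to a transposase and counted here under DNA repair (log2 difference 0.46, SE 0.23, edgeR adjusted p = 0.999). The median log2 difference was -0.03 over the 104, and 0.00 over the 1180 genes of the 3 regions and over all promoters.

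The promoter of VHL held 86 and 177 reads in the control libraries and 77 and 188 in the knockdown libraries (log2 difference 0.03, SE 0.22). The promoter of ATM held 157, 228, 168 and 225 (0.08, SE 0.15). Counts followed the depth of the replicate and overlapped between the groups. Among the other named genes the log2 difference ranged from -0.26 for SETD2 to 0.25 for CTNNB1, and the SE was 0.23 and 0.31 for these 2 genes, larger than for genes at a higher level such as CHEK1 (0.14).

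In each region the promoters with the smallest p are given as a description. In 3p they were GADL1 (log2 difference 0.63, SE 0.20), EBLN2 (0.41, SE 0.16) and KCNH8 (0.83, SE 0.36). In 4p they were SH3BP2 (-0.40, SE 0.15), NWD2 (-0.37, SE 0.15) and SH3TC1 (-0.34, SE 0.14). In 11q they were OR8B8 (0.61, SE 0.15), KCNE3 (0.40, SE 0.14) and DDIAS (0.38, SE 0.15). OR8B8, an olfactory receptor gene, held 147 and 206 reads in the control libraries and 200 and 332 in the knockdown libraries, and its unadjusted p of 8.9e-05 gave an adjusted p of 0.999 (edgeR). None of the 9 passed the threshold.

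Did start sites gain or lose a nucleosome? The 250 bp at each start site, 200 bp of them upstream, were called a nucleosome-free region (NFR) when no nucleosome lay there with 80% of its length or more. An NFR counted as lost where both control libraries were free and both knockdown libraries were not, and as formed in the opposite case. Of the promoters free in both control libraries, 11 of 253 in 3p, 5 of 108 in 4p and 7 of 153 in 11q were lost, or 4.35, 4.63 and 4.58%, against 5.26% of 8449 promoters of the genome. Of those free in both knockdown libraries, 13 of 265, 2 of 103 and 9 of 162 had formed, or 4.91, 1.94 and 5.56%, against 5.65% of 8548. The shares of the 3 regions were thus near or below those of the genome.

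Listed genes among the lost were CNTN3, a neuronal contactin, RARB, a retinoic acid receptor, and HMX1, a homeobox factor, and among the formed CNTN4, another contactin. The reads given here are those of nucleosomes with enough of their length in the window to count against an NFR. A value of 0 thus does not mean an empty window. By that count the window of CNTN3 held 0 and 0 reads in the control libraries and 10 and 23 in the knockdown libraries. RARB went from 0 and 0 to 6 and 6, HMX1 from 0 and 0 to 9 and 9, and CNTN4 from 6 and 6 to 0 and 0. Some windows counted as 0 held the dyad of a nucleosome with too little overlap. HMX1 had such a nucleosome of 10 reads at 35 bp from the start site in control replicate 1. RARB had 11 reads at -158 bp in control replicate 2, and CNTN4 had 8 at -192 bp in MYCN knockdown replicate 2. Whether these switches were shifts of a nucleosome across the overlap limit was not tested. The counted reads of RARB and CNTN4 were at the minimum of 6 that the deposited maps hold. Deeper switches were at MOGAT2 of 11q, an acyltransferase of fat absorption, with 0 and 0 against 28 and 28 reads, and at DLAT of 11q, a subunit of pyruvate dehydrogenase, with 11 and 51 against 0 and 0 reads. These 2 genes were chosen after their values were seen.

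The share of start sites that were free differed between each region and the rest of its chromosome. It was 66.3, 58.5, 70.5 and 60.5% in 3p, against 52.9, 48.5, 58.4 and 49.5% in the rest of chromosome 3. In 11q it was 53.5, 46.3, 55.7 and 46.7%, against 61.9, 53.3, 63.3 and 52.6% in the rest of chromosome 11. In 4p it was 63.6, 56.9, 61.8 and 56.9%, against 56.5, 49.1, 55.0 and 48.3% in the rest of chromosome 4. Over all promoters of the genome the share was 58.4, 52.6, 60.2 and 52.1%. In each library this was above the rest of chromosomes 3 and 4 and below the rest of chromosome 11. On chromosomes 3 and 11 the larger share was on the side of lower level in each library, whereas 4p had the larger share and the higher level as summed. The shallower replicates had the larger share in each of the 3 regions. A window is also called free where its nucleosomes stay under 6 reads, and the part of depth in these shares was not tested.

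At the start sites of VHL, BAP1, SETD2, CTNNB1 and FHIT in 3p, NSD2 and SLIT2 in 4p, and ATM, MRE11 and H2AX in 11q the window was free in all 4 libraries. At ATM the first dyad downstream of the start site lay at 119, 118, 132 and 119 bp. At MRE11 the dyads on either side of the free window were 430, 430, 418 and 431 bp apart. On that measure ATM had 397, 696, 703 and 690 bp, so control replicate 1 stood farthest from the other libraries there. MYCN knockdown replicate 1 stood farthest at MRE11 and for the downstream dyad of ATM.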

How the data were processed

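MNase-seq reads of 4 BE(2)C libraries were processed by the authors, who trimmed them with Trim Galore 0.4.4 and mapped them to hg19 with Bowtie2 2.2.4 after base calling with CASAVA 1.9 (versions from the submitters' processing notes). They kept proper pairs, removed duplicates and called nucleosomes from fragment midpoints with Genetrack. The deposited values per nucleosome are a read count and a fuzziness in bp, with nucleosomes of under 6 reads left out. The study calls the counts normalised, but they were whole numbers whose totals differed between libraries, so they were treated as counts.

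Bins of 100 kb with 10% or more unknown bases were left out. The level was scaled to the median autosomal bin, and GC correction divided it by the median of autosomal bins of the same GC percent. Segmentation was penalised least squares on log2 levels, with steps of at least 0.2 kept. Regions were compared with exact sign-flip permutation tests, which cannot go below 0.125 with 4 libraries, and groups with exact permutation tests. Bins and promoters with a mean of at least 10 reads were tested in edgeR 4.0.16 by quasi-likelihood with TMM scaling and Benjamini-Hochberg adjustment over all features, with a threshold of 0.05, and again in DESeq2 1.42.0. The fit and the segmentation were tried on simulated data in which libraries were drawn independently, without a pattern shared by replicates of one number. Genes were those of GENCODE release 44 on hg19. The members, lists and alternatives were chosen with earlier results of these data known. Named were genes picked from the 5 lists, some of which are not reported here, and the 3 promoters of smallest p in each region, and genes at breakpoints. The best positioned nucleosome is given for 4p alone. With 2 libraries per group the smallest p of an exact test between groups is 0.333.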

Additional observations from a re-analysis of the deposited data

How the results depend on the processing

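Of 295 alternatives to 37 results, 243 stayed within the limits set, 50 moved and 2 were counted as turned in direction. The limits let knockdown-minus-control differences change sign, so the 243 include changes of sign. The level of 3p in knockdown minus control, for example, was -0.0159 in the main setting and 0.00483 with GC-corrected levels. The cause of these changes was not tested. With GC-corrected levels 3p minus the rest of its chromosome was -0.648 and 4p minus the rest turned to -0.0192, and 4p in knockdown minus control was 0.0106. Relative to the rest of its chromosome, 4p in knockdown minus control turned to -0.00969 as summed and was 0.0052 after GC correction. With the mean over bins the level difference was -0.392 for 3p and 0.589 for 11q. With nucleosomes of at least 10 reads the level differences were -0.638, 0.0854 and 0.841 in 3p, 4p and 11q, the log2 ratios of reads per nucleosome -0.29, 0.039 and 0.44, and the fuzziness differences -0.544, 0.0637 and 1.01 bp. With medians the log2 ratios were -0.54, 0.11 and 0.78, and fuzziness differed by -0.768 bp in 3p and 1.27 bp in 11q. At equal read count fuzziness differed by -0.512, 0.0435 and 0.948 bp. Chromosome 3 had 3 breakpoints with double the penalty and 5 with GC-corrected levels, chromosome 4 had 10 on 50-kb bins, and chromosome 11 had 2 in MYCN knockdown replicate 2 alone. NFR lost counted 4 in 3p and 2 in 4p, and NFR formed 3 in 3p, with at least 10 reads. With 50% of a nucleosome in the window 11q had 1 lost and 4 formed. On 10-kb bins 1 bin of the genome was called.

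Leaving out each library in turn gave level differences of -0.491 to -0.469 in 3p, 0.0596 to 0.0665 in 4p and 0.624 to 0.650 in 11q. Chromosome 11 had 2 to 4 breakpoints, with 2 when control replicate 1 was left out. It also gave 0 to 6 called bins and 0 to 1 called promoters in the genome, and none in the 3 regions, with 6 bins called without control replicate 2, 1 without control replicate 1 and 1 without MYCN knockdown replicate 2, which also gave the 1 promoter. Fuzziness in knockdown minus control ranged from -0.726 to 0.717 bp in 3p, -0.724 to 0.794 bp in 4p and -0.778 to 0.762 bp in 11q.

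The labels number the replicates 1 and 2 in both groups, and deviations from the group means correlated at r = 0.848 between libraries of one number, which with 2 pairs is a hint from the data and not the design. Adding the number as a replicate block gave 5450 called bins in the genome (edgeR), 19.4% of those tested, with 122 in 3p, 97 in 4p and 142 in 11q, or 14.1, 20.5 and 22%. With the replicate block and GC correction it called 212, or 0.753%, with 1, 2 and 8 in the regions, or 0.115, 0.422 and 1.24%. The block gave 0 promoters, and with same-numbered libraries compared one with one the mean count of NFR lost was 50.5, 25 and 60.5 and of NFR formed 66, 23 and 66.5 in 3p, 4p and 11q. Depth limits the lowest stretches, where nucleosomes of under 6 reads are missing from the maps.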
